A study of Mus musculus with 6 samples.

Results

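Conjugation genes code for the enzymes that attach a glucuronic acid, another sugar or a sulfate group to hormones, bilirubin, bile acids and drugs. The set described here holds every gene in the deposited liver tables whose symbol begins with Ugt1a, Ugt2a, Ugt2b, Ugt3a or Sult and a digit, together with Papss1, Papss2 and Ugdh, which make the donor molecules. This gave 40 of 16426 genes, and 26 of the 40 passed a filter on low counts. The 6 livers were those of mice of mixed B6:sv129 background, 7 to 12 weeks old. In 3 of them the animals had received AAV8, a vector that enters the liver after tail vein injection, carrying a short hairpin RNA (shRNA) against S1PR2, a receptor for sphingosine-1-phosphate. The other 3 had received AAV8 with a scrambled hairpin. According to the series text all mice were male and drank dexamethasone, a synthetic glucocorticoid, at about 0.84 mg/kg for 7 days. No sample label names that treatment, so both groups are described by their hairpin alone. There was 1 hairpin against S1PR2 in the labels, and effects of the lower S1pr2 transcript cannot be told apart from other effects of that hairpin.

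The tables held between 16558775 and 17410160 expected counts per library, which are the fragments assigned to each gene before any scaling. S1pr2 itself stood at 3.04, 2.20 and 2.22 CPM (counts scaled to library size) in S1PR2 shRNA livers 1 to 3, against 4.41, 5.23 and 6.66 CPM in scramble livers 1 to 3, with 36 to 110 counts behind each value. Its log2 fold change was -1.12 (SE 0.24, edgeR quasi-likelihood test, adjusted p = 0.0301), and that call was lost when S1PR2 shRNA liver 2 or 3 or scramble liver 2 or 3 was left out (adjusted p up to 0.117). It was also lost in limma on log2 FPKM, at -0.90 with a pseudocount of 0.1 (adjusted p = 0.0677) and -0.54 with a pseudocount of 1 (adjusted p = 0.0684). Whether each library is a different animal is not labelled, and p-values therefore measure only the spread between these samples, which may be technical. The libraries had the markers of liver: 6 of 6 hepatocyte markers were abundant, with a summed level of 82486 to 125952 CPM in S1PR2 shRNA livers and 126182 to 160616 CPM in scramble livers, and 0 of 6 passed the test. The summed level of 6 Kupffer cell and macrophage markers was 106 to 209 CPM in S1PR2 shRNA and 77.7 to 127 CPM in scramble livers, and that of 6 endothelial markers 186 to 205 CPM in S1PR2 shRNA and 157 to 170 CPM in scramble livers. None of the Kupffer cell markers passed, whereas 2 of the 6 endothelial markers rose, Kdr (log2 fold change 0.57, edgeR adjusted p = 0.0253) and Cdh5 (0.49, edgeR adjusted p = 0.0260). The endothelial markers did not move together: their log2 fold changes ran from -0.83 to 0.57, with a median of 0.31, and 0 fell by the test. In the same test 3.02% of all genes rose and 4.64% fell. The part of these shifts in the results was not tested. In whole liver, fewer cells of a type and less RNA per cell cannot be told apart.

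As background, UDP-glucuronosyltransferases (UGTs) sit in the membrane of the endoplasmic reticulum and use UDP-glucuronate, which UDP-glucose dehydrogenase (Ugdh) makes in the cytosol. Sulfotransferases (SULTs) are cytosolic and use the sulfate donor PAPS, which the PAPS synthases (Papss1 and Papss2) make. Glucuronides and sulfates are more soluble than the parent molecules and leave the hepatocyte through export pumps, and the liver is the main organ for both reactions.

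Of the 26 conjugation genes tested, 3 fell in the S1PR2 shRNA livers, 0 rose and 23 did not pass the test. The fallers were Sult1e1, the estrogen sulfotransferase, and the Ugt1a5 and Ugt1a10 rows of the Ugt1a locus. The threshold for a call was an adjusted p under 0.05, with the Benjamini-Hochberg adjustment made across the 12230 genes in the fit. By that rule 7.66% of all genes were called, 3.02% higher and 4.64% lower. The 3 of 26 make 11.5%, all of them lower. With 3 genes called and no set test run, nothing particular is said about conjugation genes as a set. The share called also depended on the test, as given below. The median log2 fold change of the 26 was -0.10, against 0.01 over all genes tested, and single values ran from -1.84 to 0.81. In 11 of the 26 genes the livers of the groups did not overlap, 4 higher and 7 lower in the S1PR2 shRNA livers, where 31.9% of all genes did not overlap, 15.1% higher and 16.8% lower. At an unadjusted p under 0.05 the number was 10 of 26, and 24.5% of all genes passed that threshold. The DESeq2 Wald test called 10 of the 26, 3 higher and 7 lower, and 11.9% of all genes. By sign alone, 5 of 5 Sult1, 6 of 7 Ugt1a and 2 of 2 Ugt3a genes had values below 0 and 5 of 6 Ugt2 genes had values above 0. Most of these did not pass, and the sign of Sult1a1, Sult1b1, Sult1c2, Ugt1a6a, Ugt1a6b, Ugt1a7c and Ugt2b35 turned under at least 1 other scaling or with 1 liver left out.

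**Figure D1:**
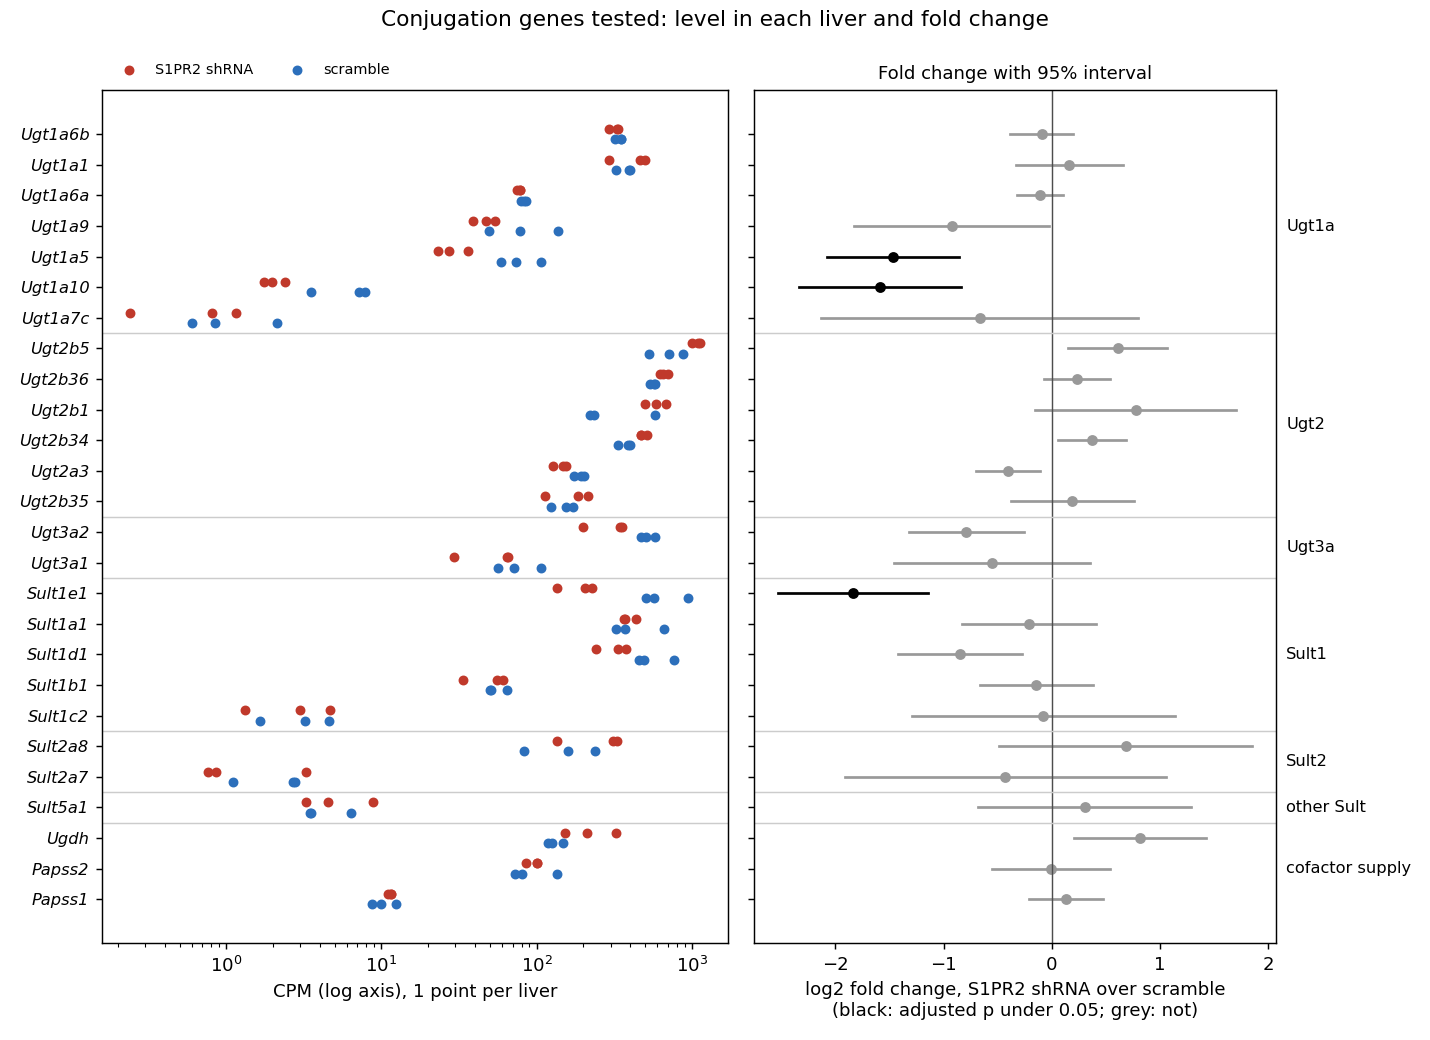
The 26 conjugation genes tested, by family: on the left the CPM of each liver on a log axis (red, S1PR2 shRNA; blue, scramble), on the right the log2 fold change of S1PR2 shRNA over scramble with its 95% interval. The 3 black intervals, of Ugt1a5, Ugt1a10 and Sult1e1, belong to genes that passed the test, and all 3 lie below 0.

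Sult1e1 (Entrez gene 20860), which inactivates estrogens by adding sulfate, had 135, 204 and 228 CPM in S1PR2 shRNA livers 1 to 3, against 950, 505 and 568 CPM in scramble livers 1 to 3. Every S1PR2 shRNA liver lay under every scramble liver, and scramble liver 1 stood well above the other scramble livers. The gene fell 3.57-fold, with 189 ± 48.4 CPM in S1PR2 shRNA and 674 ± 241 CPM in scramble livers (SD, n = 3 each), a log2 fold change of -1.84 with an SE of 0.30 (edgeR adjusted p = 0.0155). Without scramble liver 1 it still passed (-1.51, SE 0.23, edgeR adjusted p = 0.0208), and without S1PR2 shRNA liver 2 it did not (-1.90, edgeR adjusted p = 0.0694). Tat, a hepatocyte marker and a textbook glucocorticoid target, was likewise highest in scramble liver 1. It had 487, 577 and 632 CPM in S1PR2 shRNA livers 1 to 3, against 1898, 672 and 838 CPM in scramble livers 1 to 3. Tat did not pass the test (log2 fold change -1.01, edgeR adjusted p = 0.164). The other hepatocyte markers did not share this pattern. Among the scramble livers, Alb, Apoa1, Ttr and Serpina1c were lowest in scramble liver 1, and Cyp2e1 lay between the others. What lies behind the high values of Sult1e1 and Tat in scramble liver 1 was not tested. All Sult1e1 counts were whole numbers in all 6 libraries, so none of its reads had been split with another gene. In deposited FPKM, which are scaled per kilobase and so can be compared between genes, Sult1e1 had 157 ± 31.5 in S1PR2 shRNA and 515 ± 194 in scramble livers. Per length it was the most abundant SULT transcript in every scramble liver, with 47.3, 41.2 and 45.1% of the summed SULT FPKM of scramble livers 1 to 3. In S1PR2 shRNA livers 1 to 3 it made up 19.6, 20.6 and 23.6%.

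Sult1d1, the mouse enzyme for dopamine and other catecholamines, lies next to Sult1e1 on chromosome 5. It had 243, 336 and 379 CPM in S1PR2 shRNA livers 1 to 3, against 772, 494 and 459 CPM in scramble livers 1 to 3. The groups did not overlap, but the change did not pass the test (log2 fold change -0.85, 95% interval -1.42 to -0.27, edgeR adjusted p = 0.0818). Sult1a1, the main phenol sulfotransferase, had 373, 437 and 367 CPM in S1PR2 shRNA livers 1 to 3, against 663, 324 and 373 CPM in scramble livers 1 to 3. Here the groups overlapped, and the sign depended on scramble liver 1: the log2 fold change was -0.21 with it (95% interval -0.83 to 0.41, edgeR adjusted p = 0.697) and 0.17 without it (edgeR adjusted p = 0.587). Sult1a1 was the most abundant SULT transcript per length in the S1PR2 shRNA livers, with 33.1 to 47.3% of the summed SULT FPKM, against 23.0 to 28.7% in scramble livers. Sult1b1, which sulfates thyroid hormones, had 33.7 to 60.6 CPM in S1PR2 shRNA and 49.8 to 64.5 CPM in scramble livers. Sult1c2 was low, at 1.32 to 4.68 CPM in S1PR2 shRNA and 1.65 to 4.60 CPM in scramble livers. Neither passed, and both had overlapping groups.

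**Figure D2:**
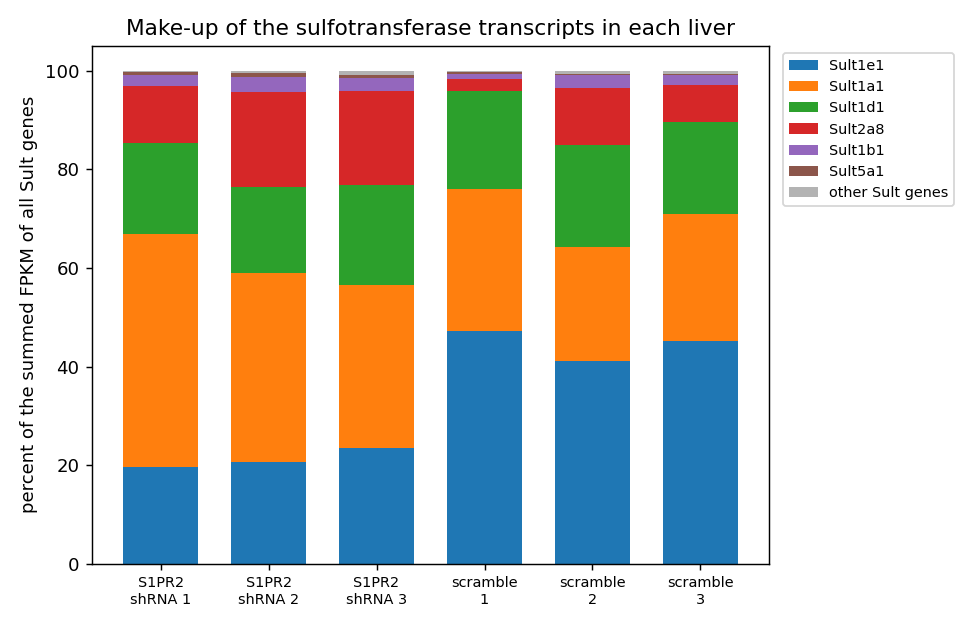
Share of each SULT gene in the summed deposited FPKM of all SULT genes, in percent, 1 bar per liver (S1PR2 shRNA livers on the left, scramble livers on the right). Sult1e1, the lowest segment, took 19.6 to 23.6% in S1PR2 shRNA livers and 41.2 to 47.3% in scramble livers.

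Among the Sult2 genes, which act on steroids and bile acids, Sult2a8 was the main transcript. It codes for a bile acid sulfotransferase of mouse liver. It had 135, 328 and 313 CPM in S1PR2 shRNA livers 1 to 3, against 83.2, 239 and 160 CPM in scramble livers 1 to 3. The livers of each group differed from each other by more than 2-fold (2.44-fold in S1PR2 shRNA and 2.88-fold in scramble livers) and the groups overlapped, so its log2 fold change of 0.68 did not pass (95% interval -0.48 to 1.85, edgeR adjusted p = 0.448). Sult2a7 had 0.759 to 3.28 CPM in S1PR2 shRNA and 1.10 to 2.78 CPM in scramble livers and did not pass. Sult2a1 and Sult2a2, hydroxysteroid sulfotransferases, were listed with 6.84 and 7.16 expected counts in scramble liver 1. Sult2a2 had 1 count more in scramble liver 2, and neither gene had a count in any other library. Sult2a6 had 2 counts, both in scramble liver 1. Scramble liver 1 was thus the library with the lowest Sult2a8 and the highest Sult1e1, Sult1d1 and Sult1a1.

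The remaining sulfotransferases were nearly silent. Sult5a1 had 3.24, 8.82 and 4.51 CPM in S1PR2 shRNA livers 1 to 3, against 6.37, 3.48 and 3.51 CPM in scramble livers 1 to 3, and did not pass (log2 fold change 0.30, edgeR adjusted p = 0.721). Sult3a1, an amine sulfotransferase, had 0, 1 and 1 counts in S1PR2 shRNA livers 1 to 3, against 8, 5 and 14 counts in scramble livers 1 to 3. It was too low for the filter. The ratio of scramble to S1PR2 shRNA was 13.2, with a 95% exact counting interval of 3.31 to 114 that covers counting error only. Without the filter it passed (log2 fold change -3.62, edgeR adjusted p = 0.0443), and in limma on log2 FPKM it passed with a pseudocount of 0.1 (-2.02, adjusted p = 0.0316) but not of 1 (-0.50, adjusted p = 0.0563). It entered those 2 FPKM fits, which ask for a mean of 0.1 FPKM, only through the scramble livers. Its mean was 0.04 FPKM in S1PR2 shRNA and 0.487 FPKM in scramble livers. Of the low members only Sult3a1 was read this way, after its values were seen, so no conclusion is drawn from these passes. Sult3a2, Sult4a1, Sult6b1, Sult6b2 and Sult2b1 had at most 2 counts in any library.

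Neither PAPS synthase passed the test. Papss2, the more abundant in liver, had 101, 100 and 85.3 CPM in S1PR2 shRNA livers 1 to 3, against 135, 72.3 and 81.0 CPM in scramble livers 1 to 3. The groups overlapped, with a log2 fold change of -0.01 (95% interval -0.55 to 0.53, edgeR adjusted p = 0.985) that became 0.32 without scramble liver 1 (edgeR adjusted p = 0.210). Papss1 had 11.5, 10.99 and 11.5 CPM in S1PR2 shRNA livers 1 to 3, against 8.67, 12.4 and 9.99 CPM in scramble livers 1 to 3. Its log2 fold change of 0.13 did not pass (95% interval -0.21 to 0.48, edgeR adjusted p = 0.651).

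The Ugt1a genes need their sequence to be read correctly, because they are 1 locus on chromosome 1. Each has a first coding part of its own, with its own promoter, spliced to the same last 4 exons. In GENCODE M21 transcripts (GRCm38, plus strand) the own part holds 53.6 to 54.2% of the coding bases, and all 8 genes share the remaining 735 coding bases. The stretches across that splice junction are shown to make the shared part visible, with the last 30 bases of the own part in lower case and the first 30 bases of the shared exons in capitals.
Ugt1a1: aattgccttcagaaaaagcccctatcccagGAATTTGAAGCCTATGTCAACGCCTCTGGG
Ugt1a5: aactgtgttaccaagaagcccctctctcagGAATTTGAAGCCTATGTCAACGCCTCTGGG
Ugt1a2: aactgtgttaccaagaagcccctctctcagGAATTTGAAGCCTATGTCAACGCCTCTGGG
Ugt1a10: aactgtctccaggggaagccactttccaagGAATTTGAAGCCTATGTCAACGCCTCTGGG
Ugt1a9: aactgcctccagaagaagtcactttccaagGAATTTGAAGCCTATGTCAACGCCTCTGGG
Ugt1a6a: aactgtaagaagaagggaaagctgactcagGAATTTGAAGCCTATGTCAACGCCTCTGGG
A read from the capitals alone cannot be assigned to 1 of these genes, and the lower case ends of Ugt1a5 and Ugt1a2 are the same. The stretch of Ugt1a6b is not printed and is the same as that of Ugt1a6a. In Ugt1a6a, 71.4% of all stretches of 100 bases also occur in Ugt1a6b. Of all stretches of 100 bases in the GENCODE transcript of Ugt1a5, 63.1% also occur in another conjugation gene, and for Ugt1a10 the share is 57.5%. These transcripts hold 2203 and 2244 bases, of which 892 and 926 are the own part. The deposited rows are longer, at 3208 and 3242 bases. The shares in the sequences that were counted were not computed and may be higher. All 8 rows held fractional counts. How reads of the shared exons were divided between the rows is not stated, and the single values of the rows are uncertain.

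The locus as a whole did not pass the test. With the 8 rows added into 1, it had 735, 978 and 961 CPM in S1PR2 shRNA livers 1 to 3, against 930, 956 and 1028 CPM in scramble livers 1 to 3. S1PR2 shRNA liver 1 was the lowest, and the groups overlapped. The log2 fold change of the sum was -0.12 (95% interval -0.51 to 0.26, edgeR adjusted p = 0.708).

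Within the locus, Ugt1a5 and Ugt1a10 fell. Ugt1a5 (394433) had 23.1, 36.3 and 27.3 CPM in S1PR2 shRNA livers 1 to 3, against 58.7, 74.1 and 107 CPM in scramble livers 1 to 3. The groups did not overlap, with 28.9 ± 6.72 CPM in S1PR2 shRNA and 80.0 ± 24.7 CPM in scramble livers (SD, n = 3 each), a log2 fold change of -1.47 with an SE of 0.26 (edgeR adjusted p = 0.0220). The call was lost without S1PR2 shRNA liver 1 (edgeR adjusted p = 0.0601), S1PR2 shRNA liver 3 (0.0832) or scramble liver 2 (0.0539). Ugt1a10 (394430), known mainly from the gut in humans, was a minor row with 1.76, 1.97 and 2.38 CPM in S1PR2 shRNA livers 1 to 3, against 7.82, 3.50 and 7.14 CPM in scramble livers 1 to 3. Its groups did not overlap either (log2 fold change -1.59, SE 0.32, edgeR adjusted p = 0.0266). This call was lost when any liver other than scramble liver 2 was left out (edgeR adjusted p 0.0714 to 0.108), with limma-voom (adjusted p = 0.0627) and on FPKM.

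The abundant rows of the locus did not pass. Ugt1a1, the bilirubin UGT, had 292, 498 and 464 CPM in S1PR2 shRNA livers 1 to 3, against 326, 395 and 399 CPM in scramble livers 1 to 3. The groups overlapped (log2 fold change 0.16, 95% interval -0.33 to 0.65, edgeR adjusted p = 0.704). Ugt1a6b and Ugt1a6a, which act on small phenols, were the steadiest rows. How reads were split between Ugt1a6b and Ugt1a6a is uncertain, and their deposited lengths differ, at 2293 and 3302 bases. Ugt1a6b had 291 to 334 CPM in S1PR2 shRNA and 319 to 350 CPM in scramble livers (log2 fold change -0.09, 95% interval -0.39 to 0.20). Ugt1a6a had 74.3 to 78.4 CPM in S1PR2 shRNA and 78.9 to 85.6 CPM in scramble livers (log2 fold change -0.11, 95% interval -0.32 to 0.11). Ugt1a9, which conjugates bulkier phenols, had 47.2, 39.1 and 54.1 CPM in S1PR2 shRNA livers 1 to 3, against 138, 49.6 and 78.5 CPM in scramble livers 1 to 3. Its groups overlapped, scramble liver 1 was the highest, and the log2 fold change of -0.93 (edgeR adjusted p = 0.195) was -0.45 without that liver. Ugt1a7c had 0.241 to 1.16 CPM in S1PR2 shRNA and 0.596 to 2.13 CPM in scramble livers, and Ugt1a2 had at most 4.42 counts in a library. By length, Ugt1a6b and Ugt1a1 together made up most of the locus in every liver: Ugt1a6b took 41.7 to 48.3% of its summed FPKM in S1PR2 shRNA and 42.1 to 45.0% in scramble livers, and Ugt1a1 took 34.2 to 44.7% in S1PR2 shRNA and 30.7 to 35.9% in scramble livers. Ugt1a5 took 2.50 to 3.28% in S1PR2 shRNA and 5.57 to 9.20% in scramble livers.

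**Figure D3:**
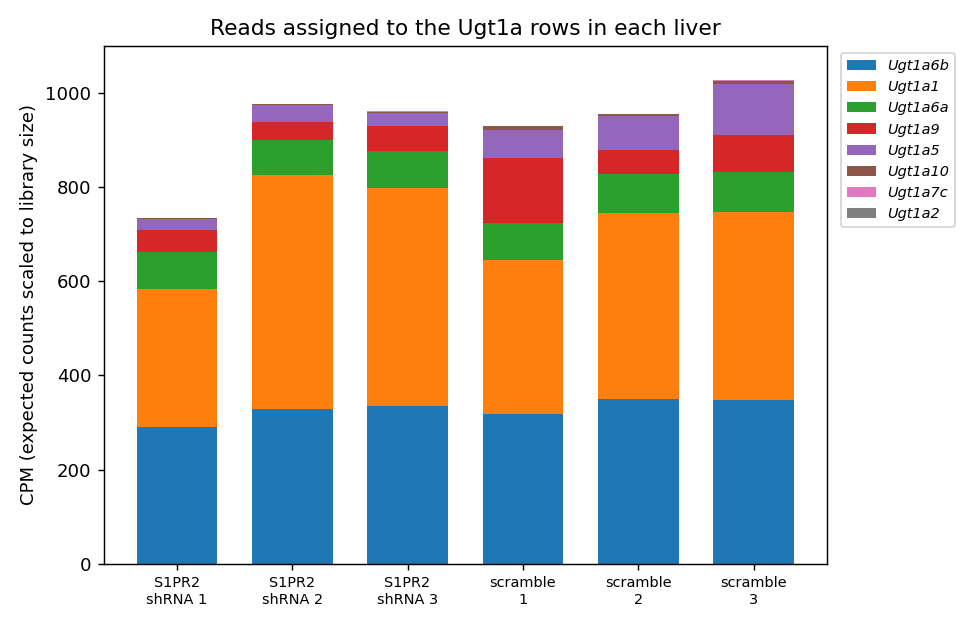
CPM assigned to each of the 8 Ugt1a rows, stacked, 1 bar per liver (S1PR2 shRNA livers on the left, scramble livers on the right). The bars reach 735 to 978 CPM in S1PR2 shRNA and 930 to 1028 CPM in scramble livers, while the Ugt1a5 segment spans 23.1 to 36.3 CPM in S1PR2 shRNA and 58.7 to 107 CPM in scramble livers.

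The Ugt2 family supplied most UGT transcripts, and 5 of its 6 tested members had values above 0, although 0 of 6 tested genes passed (3 at an unadjusted p under 0.05, where 24.5% of all genes had one). The DESeq2 Wald test, which called 11.9% of all genes, called 3 of the 6 Ugt2 genes, Ugt2b5 and Ugt2b34 higher and Ugt2a3 lower. By deposited FPKM the Ugt2 family made up 78.9, 73.3 and 73.2% of the summed UGT level in S1PR2 shRNA livers 1 to 3, against 59.1, 67.8 and 62.5% in scramble livers 1 to 3, with no overlap. Ugt2b enzymes conjugate steroids, bile acids and many drugs. Ugt2b5 had the highest mean FPKM of the UGT genes, although in scramble liver 1 Ugt2b36 was marginally higher, with 275 FPKM against 272 FPKM for Ugt2b5. Per library, Ugt2b5 had 1005, 1128 and 1094 CPM in S1PR2 shRNA livers 1 to 3, against 534, 875 and 709 CPM in scramble livers 1 to 3. Its groups did not overlap (log2 fold change 0.61, 95% interval 0.15 to 1.07, edgeR adjusted p = 0.109). In limma on log2 FPKM it passed (0.78 with a pseudocount of 0.1, adjusted p = 0.0430). On that FPKM scale the median of all genes stood at 0.16, against 0.01 in the edgeR fit.

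Ugt2b36 had 626, 654 and 700 CPM in S1PR2 shRNA livers 1 to 3, against 536, 576 and 573 CPM in scramble livers 1 to 3. The groups did not overlap, and the log2 fold change was small and did not pass (0.23, 95% interval -0.07 to 0.54, edgeR adjusted p = 0.331). Ugt2b1 had 590, 688 and 504 CPM in S1PR2 shRNA livers 1 to 3, against 220, 584 and 236 CPM in scramble livers 1 to 3. Scramble liver 2 lay among the S1PR2 shRNA livers, so the groups overlapped (log2 fold change 0.78, 95% interval -0.15 to 1.71, edgeR adjusted p = 0.282). Without scramble liver 2 the value was 1.37 and passed (edgeR adjusted p = 0.0223). Ugt2b34 had 469 to 518 CPM in S1PR2 shRNA and 335 to 399 CPM in scramble livers, with no overlap (log2 fold change 0.37, edgeR adjusted p = 0.139). Ugt2a3 ran the other way, with 127 to 156 CPM in S1PR2 shRNA and 174 to 202 CPM in scramble livers and no overlap (log2 fold change -0.40, edgeR adjusted p = 0.0996). Ugt2b35 overlapped, with 113 to 215 CPM in S1PR2 shRNA and 124 to 172 CPM in scramble livers. The other 4 members, Ugt2b37, Ugt2b38, Ugt2a1 and Ugt2a2, had at most 35.6 counts in a library. All 10 Ugt2 rows had fractional counts in at least 1 library, and 24.7% of the 100-base stretches of Ugt2b5 also occur in Ugt2b38.

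The Ugt3a enzymes use sugars other than glucuronic acid, as known from their human counterparts. Ugt3a2 had 200, 357 and 346 CPM in S1PR2 shRNA livers 1 to 3, against 583, 508 and 471 CPM in scramble livers 1 to 3. The groups did not overlap, and S1PR2 shRNA liver 1 was the lowest (log2 fold change -0.79, 95% interval -1.32 to -0.26, edgeR adjusted p = 0.0789). Ugt3a1 had 29.3, 64.7 and 65.4 CPM in S1PR2 shRNA livers 1 to 3, against 106, 71.4 and 56.1 CPM in scramble livers 1 to 3, which overlapped (log2 fold change -0.56, edgeR adjusted p = 0.425). Together they made up 5.97 to 9.54% of the summed UGT FPKM in S1PR2 shRNA and 14.1 to 19.99% in scramble livers. No stretch of 100 bases was shared between either gene and another member, although both rows held fractional counts.

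Ugdh (22235), the source of UDP-glucuronate, had 325, 154 and 211 CPM in S1PR2 shRNA livers 1 to 3, against 147, 119 and 126 CPM in scramble livers 1 to 3. Each S1PR2 shRNA liver lay above each scramble liver, with S1PR2 shRNA liver 1 far above the rest. The log2 fold change of 0.81 did not pass (95% interval 0.20 to 1.42, edgeR adjusted p = 0.107), and its counts were whole in all libraries.

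**Figure D4:**
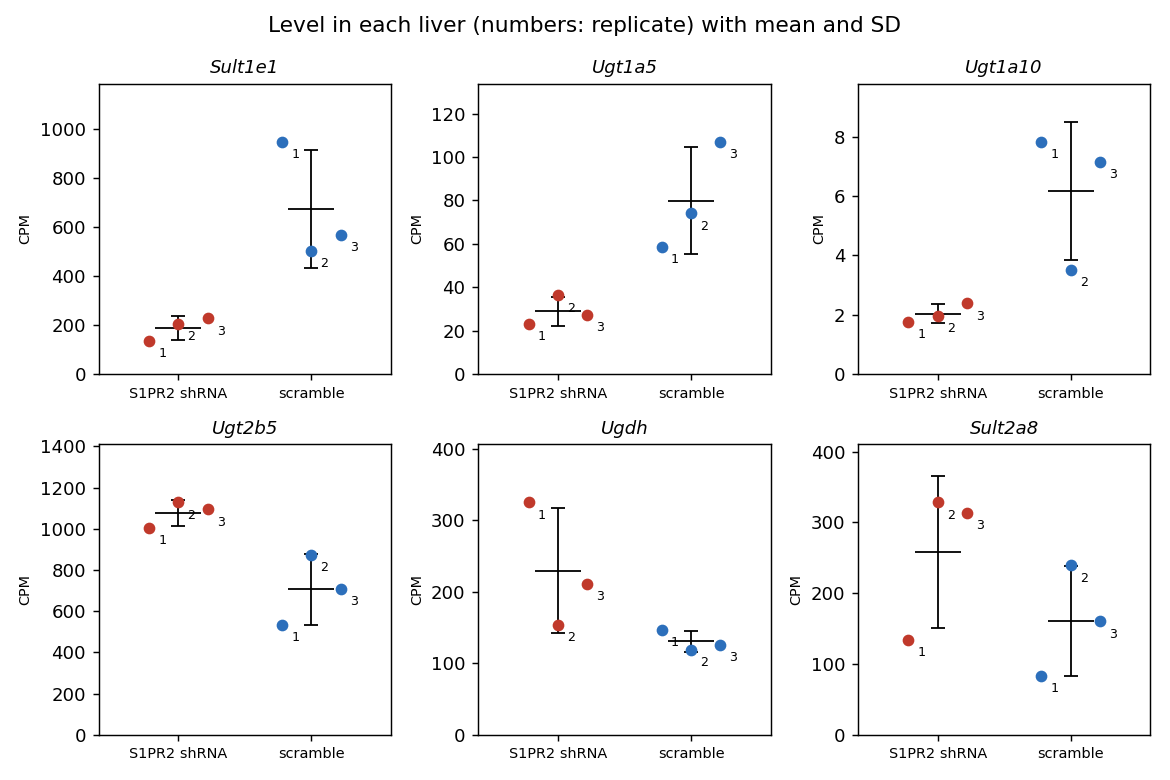
CPM of 6 conjugation genes in each liver (points, numbered by replicate), with the group mean and SD (n = 3). Sult1e1, Ugt1a5 and Ugt1a10 are lower and Ugt2b5 and Ugdh higher in every S1PR2 shRNA liver than in every scramble liver, whereas the groups of Sult2a8 overlap. The last 3 did not pass the test.

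Other genes that supply, move or recycle these groups were read from the same fit. Of 21 such genes, 2 rose, 1 fell and 18 did not pass, where 3.02% of all genes rose and 4.64% fell. Their median log2 fold change was -0.05, against 0.01 over all genes. Slc35d1, which carries UDP-glucuronate into the endoplasmic reticulum, rose to 71.9, 57.9 and 74.3 CPM in S1PR2 shRNA livers 1 to 3, against 38.9, 37.6 and 33.2 CPM in scramble livers 1 to 3 (log2 fold change 0.90, SE 0.13, edgeR adjusted p = 0.00884). Arsa, the lysosomal arylsulfatase A, rose to 81.9 to 86.1 CPM, against 42.7 to 44.3 CPM in scramble livers (0.93, SE 0.09, edgeR adjusted p = 0.00361). Sumf1, which activates sulfatases, fell to 16.2 to 19.3 CPM, against 27.5 to 29.4 CPM in scramble livers (-0.71, SE 0.10, edgeR adjusted p = 0.00982). Of 5 exporters of conjugates, 1 rose and 4 did not pass, against the same 3.02% of all genes that rose. The 4 had log2 fold changes in both directions. Abcc2 stood at -0.80 (edgeR adjusted p = 0.0514) and Abcg2 at -0.32 (edgeR adjusted p = 0.0912). Abcc6 stood at 0.41 (edgeR adjusted p = 0.180) and Abcc4 at 0.58 (edgeR adjusted p = 0.556). The riser was Abcc3, which pumps glucuronides into the blood, with 215 to 325 CPM in S1PR2 shRNA and 49.0 to 76.8 CPM in scramble livers (log2 fold change 2.00, SE 0.22, edgeR adjusted p = 0.00524).

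Of 21 transcription factors and receptors known to act on conjugation genes or on liver identity, 3 rose, 2 fell and 16 did not pass, with a median log2 fold change of -0.08. Over all genes 3.02% rose and 4.64% fell. Ahr, the aryl hydrocarbon receptor, had 66.8, 42.0 and 35.4 CPM in S1PR2 shRNA livers 1 to 3, against 23.5, 12.6 and 14.7 CPM in scramble livers 1 to 3 (log2 fold change 1.51, SE 0.32, edgeR adjusted p = 0.0441). Nfe2l2, which encodes NRF2, rose by 0.62 on that scale (SE 0.15, edgeR adjusted p = 0.0433), and Keap1, its inhibitor, stood lower, at -0.45 on that scale (SE 0.10, edgeR adjusted p = 0.0318). The pioneer factor Foxa1 rose by 0.70 on that scale (SE 0.17, edgeR adjusted p = 0.0450). These 3 rises lay just under the threshold, and whether they hold in other fits or with a liver left out is not given here. The xenobiotic receptors were not called: Nr1i3 (CAR) had a log2 fold change of 0.05 (95% interval -0.25 to 0.35) and Nr1i2 (PXR) of -0.07 (95% interval -0.91 to 0.76). The same held for the glucocorticoid receptor gene Nr3c1, at 0.19 (95% interval -0.19 to 0.57), and for Ppara, Rxra, Nr1h3, Nr1h4, Hnf4a, Esr1, Rora and Nr0b2, with values from -0.38 to 0.65.

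Promoters are shown for the 3 genes that fell, for Ugt1a1 as a row of the same locus that did not pass, and for Ugdh, which did not pass either. RefSeq promoter windows on GRCm38.p6 matched 34 of the 40 genes. The 250 bases before the start site are printed, and capitals mark every match, on either strand, to 6 short motifs: AGGTCA (nuclear receptor core), AGAACA (glucocorticoid receptor core), GTTAAT (HNF1 core), TTCNNNGAA (STAT), GCGTG (AHR core) and TGACNNNGC (NRF2 core).
Sult1e1, chr5:87591612-87591861, minus strand: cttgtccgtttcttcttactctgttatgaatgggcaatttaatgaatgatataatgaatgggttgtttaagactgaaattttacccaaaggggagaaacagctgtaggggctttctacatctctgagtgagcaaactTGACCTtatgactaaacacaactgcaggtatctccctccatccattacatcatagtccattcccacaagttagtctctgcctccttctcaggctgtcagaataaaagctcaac
Ugt1a5, chr1:88165762-88166011, plus strand: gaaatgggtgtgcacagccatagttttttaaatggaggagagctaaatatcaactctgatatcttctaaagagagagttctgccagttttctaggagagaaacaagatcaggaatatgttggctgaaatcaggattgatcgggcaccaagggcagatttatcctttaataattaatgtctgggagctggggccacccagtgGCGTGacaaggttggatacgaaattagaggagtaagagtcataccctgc
Ugt1a10, chr1:88055161-88055410, plus strand: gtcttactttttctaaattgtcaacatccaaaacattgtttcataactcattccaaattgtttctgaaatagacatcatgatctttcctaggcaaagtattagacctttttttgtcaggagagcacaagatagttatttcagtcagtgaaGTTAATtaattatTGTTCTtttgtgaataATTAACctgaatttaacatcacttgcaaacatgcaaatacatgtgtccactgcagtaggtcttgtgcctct
Ugt1a1, chr1:88211709-88211958, plus strand: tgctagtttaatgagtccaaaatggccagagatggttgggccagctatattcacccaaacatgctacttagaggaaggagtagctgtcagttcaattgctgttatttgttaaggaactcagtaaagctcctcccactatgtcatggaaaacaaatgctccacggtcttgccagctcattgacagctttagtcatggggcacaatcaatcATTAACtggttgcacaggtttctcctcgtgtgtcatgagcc
Ugdh, chr5:65435843-65436092, minus strand: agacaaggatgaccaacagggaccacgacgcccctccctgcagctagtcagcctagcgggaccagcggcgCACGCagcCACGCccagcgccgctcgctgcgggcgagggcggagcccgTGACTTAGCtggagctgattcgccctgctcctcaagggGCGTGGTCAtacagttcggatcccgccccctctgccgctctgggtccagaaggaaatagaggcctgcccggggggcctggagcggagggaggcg

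The 3 promoters of the fallers held different letters. The Sult1e1 window had 1 match, to AGGTCA on the opposite strand, a motif in 13.8% of all 27025 promoters of this length and in 9 of the 34 conjugation gene promoters. The Ugt1a5 window had 1 match, to GCGTG, which 28.2% of all promoters and 4 of 34 conjugation gene promoters hold. The Ugt1a10 window had GTTAAT in both orientations and AGAACA between them on the opposite strand. GTTAAT was in 6.52% of all promoters and in 10 of 34 conjugation gene promoters, among them Ugt1a1, and AGAACA was in 16.2% of all promoters and 7 of 34. The Ugdh window had 3 matches to GCGTG and 2 to TGACNNNGC, of which 1 pair overlaps, and it was the only conjugation gene promoter of the 34 with TGACNNNGC, a motif in 10.1% of all promoters. TTCNNNGAA was in 7.18% of all promoters and in 2 of 34, neither of them printed here. The windows of Sult1d1 and Ugt2b5, genes that did not pass the edgeR test, were also read but are not printed. Sult1d1 held GTTAAT and GCGTG, and Ugt2b5 held AGGTCA. All these matches describe letters in the reference, and binding was not measured.

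In chromosome order the values of the Ugt2 and Sult1 genes on chromosome 5 changed sign along the cluster. The 10 Ugt2 genes are followed by Sult1b1, Sult1d1 and Sult1e1 with no other protein-coding gene between them in RefSeq. The log2 fold changes were 0.37 for Ugt2b34, 0.78 for Ugt2b1, 0.19 for Ugt2b35, 0.23 for Ugt2b36 and 0.61 for Ugt2b5. Further along they were -0.40 for Ugt2a3, -0.14 for Sult1b1, -0.85 for Sult1d1 and -1.84 for Sult1e1. Of these 9 tested genes 1 passed, Sult1e1 at the end of the cluster, and the order was looked at after the values were known. Along the Ugt1a locus the fallers Ugt1a10 and Ugt1a5 were not neighbours: Ugt1a9, Ugt1a7c, Ugt1a6b and Ugt1a6a lie between them, at -0.93, -0.67, -0.09 and -0.11.

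**Figure D5:**
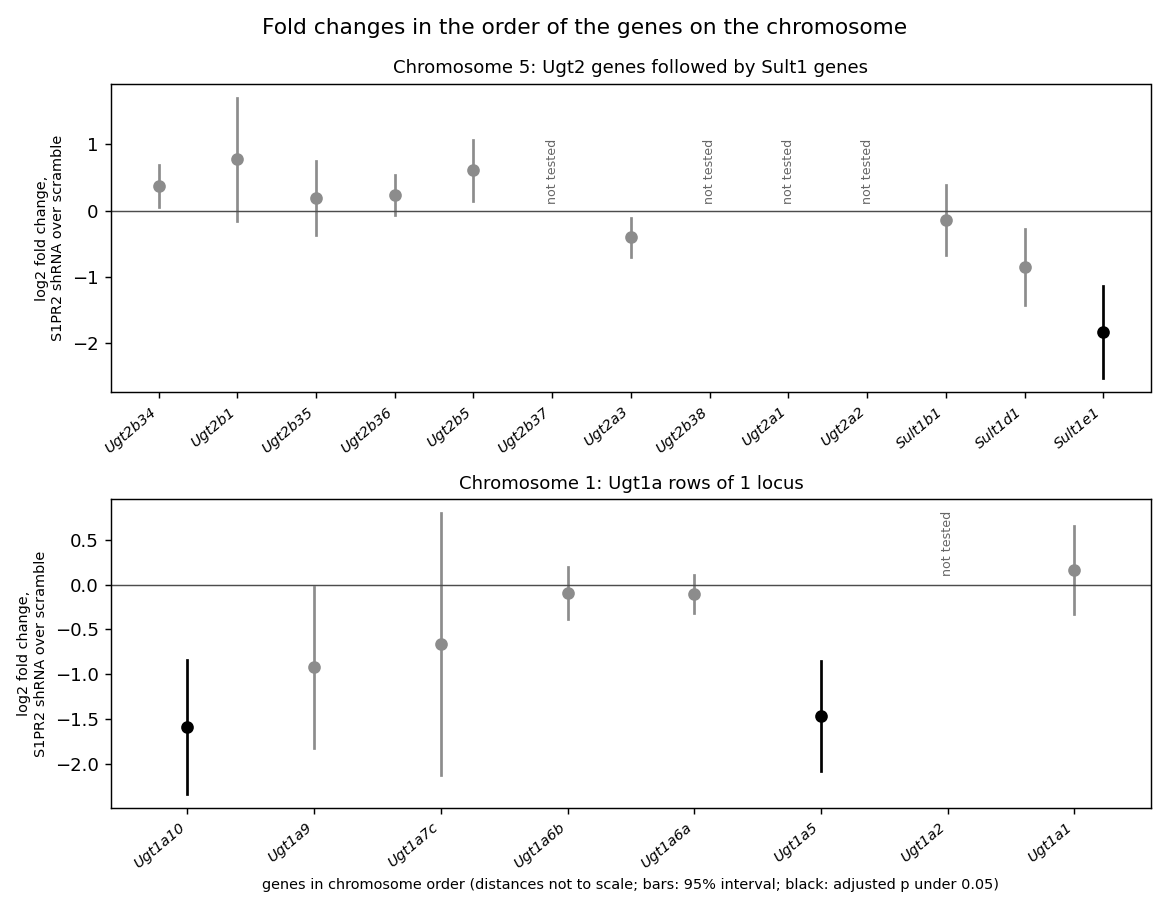
Log2 fold change of S1PR2 shRNA over scramble with its 95% interval, for the genes in chromosome order (upper panel, the Ugt2 and Sult1 cluster of chromosome 5; lower panel, the Ugt1a locus of chromosome 1). On chromosome 5 the values run from 0.37 at Ugt2b34 to -1.84 at Sult1e1, and black intervals mark the genes that passed the test.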

How the data were processed

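Total RNA of 6 livers was sequenced on a DNB platform. The submitters' processing notes name the mm9 build and the tools DESeq2, RSEM 1.2.12, Bowtie2 and HISAT2. Strand handling and the role of each tool are not stated there. The authors deposited, per gene and library, expected counts (not scaled to depth) and FPKM with 2 decimals and a lowest value of 0.01. A gene not listed counted as 0. Genes with no symbol, with 0.204 to 0.255% of the counts, were kept under their gene ID.

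Expected counts were rounded, filtered with filterByExpr (minimum count 10), scaled with TMM factors and compared with the edgeR 4.0.16 quasi-likelihood F test, two-sided, robust, with group as the only factor (R 4.3.3). Adjusted p-values are Benjamini-Hochberg over all 12230 genes tested; intervals are those of the same fit. CPM use the same scaling, also for genes under the filter. Shares of FPKM are within a library. A count was called fractional when it lay over 0.001 from a whole number. The steps were tested on simulated data.

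The members and lists were chosen with earlier results of these data known. For 1 gene of the regulator list, values are not reported here; it is included in that list's counts. Values in every liver were planned for genes called and the 3 with the highest mean FPKM per family; Ugt1a9, Ugt1a7c, Ugt2b34, Ugt2b35, Ugt2a3, Sult1b1 and Sult1c2 and the low members were added after their values were seen. All 15 pairs of libraries differed (chi-square per degree of freedom 20.1 to 194). The alternatives were other scalings, filters, the DESeq2 1.42.0 Wald test, limma 3.58.1 (voom, or log2 FPKM with a pseudocount), a replicate block, the Ugt1a rows summed and each liver left out. Sequences came from RefSeq (GRCm38.p6 promoters) and GENCODE M21 transcripts matched by RefSeq accession. Gene order was taken from RefSeq GRCm38.p6. The mm9 build has no annotation here, so no mm9 coordinates are given.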

Additional observations from a re-analysis of the deposited data

How the results depend on the processing

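Over 18 alternatives, the 26 tested genes gave 460 values: 408 kept direction and call, 14 lost a call, 11 gained one and 27 changed sign. The changes of sign were in 9 genes, none of them called. On FPKM (pseudocount 0.1, 1, and 0.1 without a filter) they were Sult1a1 (0.0084, 0.0082, 0.0084), Sult1c2 (0.017, 0.020, 0.017), Ugt1a6b (0.054, 0.053, 0.054), Ugt1a6a (0.043, 0.042, 0.043), Papss2 (0.19, 0.18, 0.19) and the Ugt1a sum (0.018 in all 3). Papss2 also stood at 0.063 with upper-quartile factors, 0.041 with limma-voom and 0.040 with the replicate block. Over the 6 fits with 1 liver left out the ranges were -0.41 to 0.17 for Sult1a1, -0.19 to 0.32 for Papss2, -0.30 to 0.074 for Sult1b1, -0.57 to 0.28 for Sult1c2, -1.15 to 0.023 for Ugt1a7c, -0.012 to 0.42 for Ugt2b35 and -0.21 to 0.65 for Sult5a1.

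The number of conjugation genes called was 3 with the edgeR test and 10 with the DESeq2 Wald test (3 higher, 7 lower), which called 1461 of all genes (11.9%), against 937. The added genes were Ugt2b5, Ugt2b34 and Ugdh (higher) and Sult1d1, Ugt1a9, Ugt2a3 and Ugt3a2 (lower). With the Ugt1a rows summed it was 1 (lower). It ran from 1 to 3 with 1 liver left out (0 to 1 higher, 1 to 2 lower), and the number over all genes from 231 to 643. On FPKM 1 gene, Ugt2b5, was higher with a pseudocount of 0.1 or 1. The share of lower calls over all genes was 60.6%, 48.5% with upper-quartile factors, and 30.8, 30.6 and 31.6% on FPKM, where all genes had a median of 0.16, 0.10 and 0.13. The FPKM fits used the deposited values without the TMM factors. Those factors were 0.987 to 1.15 in S1PR2 shRNA and 0.924 to 0.968 in scramble libraries. The cause of the shift was not tested.

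The replicate numbers did not pair the livers: correlations of the deviations of same-numbered livers were -0.06, 0.22 and -0.12. With the replicate block 3 conjugation genes were called (1 higher, Sult2a8, at 0.70; Ugt1a5 and Ugt1a10 lower), Sult1e1 had an adjusted p of 0.0537, and 808 genes were called in all. S1pr2 lost its call with the block (-1.11), on FPKM (-0.90, -0.54 and -0.90) and without 4 of the livers (-0.95 to -1.16; range with any liver left out -0.95 to -1.29). Keeping the Ugt1a rows apart gives no value for the sum. The 14 genes under the filter had at most 35.6 counts in a library, too few to enter the edgeR fit.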
